A study of Mus musculus with 22 samples.

Results

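Ptprc, Vav1, Was, Rhog, Pik3cg and Jak3 take part in signalling in blood cells. Their transcripts were followed here in G-MDSCs from mouse tumours across 5 treatment groups. G-MDSCs are the granulocytic kind of myeloid-derived suppressor cell, which resembles a neutrophil and can hold back T cells. The 6 genes were named as members because an earlier reading of these same values had shown strong shifts between groups, out of 655 endogenous genes on the panel. The group differences of the 6 genes are therefore a description and carry no test. All 6 were among the 420 genes that entered the fit. A gene entered when its geometric mean lay above a background limit of 29.3 normalized counts in at least 1 group. Ptprc, Vav1, Rhog and Jak3 were above it in all 22 samples. Was passed through the 3 groups in which it was high, and Pik3cg through the groups given entinostat alone and entinostat plus anti-PD-1, so both had to differ from the remaining groups.

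The cells came from tumours of the mouse mammary cancer line NT2.5, grown in the mammary fat pad of female FVB-Neu-N mice, which were 7 to 8 weeks old and received 50000 cells each. Treatment started 3 days after implantation and ran for 3 weeks. Entinostat blocks class I histone deacetylases, and mice were gavaged with 5 mg/kg each day in 0.5% methylcellulose. Anti-PD-1 (clone RPM1-14) and anti-CTLA-4 (clone 9H-10) block inhibitory receptors of T cells and were injected at 100 µg, 2 times weekly. Vehicle mice (6 samples) received methylcellulose with isotype antibodies. Entinostat was given alone (4 samples), with anti-PD-1 (4 samples), with anti-CTLA-4 (4 samples) or with both antibodies, a group named here the triple combination (4 samples). Every treated group received entinostat, and no group received an antibody alone. The labels leave unstated whether anti-HER2 was also given to these mice. They name the cells as positively selected on Ly6G with a column passed 2 times, and they do not tie a sample to a separate animal. P-values thus reflect the spread among these samples alone, and that spread may be technical.

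The 6 genes stand for different steps of signalling inside leukocytes. Ptprc encodes CD45, the receptor tyrosine phosphatase on nearly all leukocytes that keeps Src family kinases ready to act. Jak3 encodes the tyrosine kinase bound to the common gamma chain of cytokine receptors, and Pik3cg the catalytic subunit of the lipid kinase PI3Kγ, which acts behind chemoattractant receptors of neutrophils. Vav1 encodes an exchange factor that loads small GTPases with GTP after tyrosine kinase signals, and Rhog a small GTPase that feeds into Rac. Was encodes WASP, which passes such signals to actin branching and is lost in Wiskott-Aldrich syndrome. Neutrophils use these steps to crawl, engulf particles and make oxidants.

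Transcripts were counted through fluorescent barcodes without amplification, and the deposited values were normalized counts. The shallowest sample, triple combination 2, held 23296 barcode counts and the deepest, anti-CTLA-4 sample 1, held 443871, around a median of 179364. A single count was worth 9.78 normalized counts in the shallowest sample and 0.400 in the deepest. The samples were measured in 2 runs. Run 1 held vehicle samples 1, 2 and 4, both groups without anti-CTLA-4 in full, and triple combination sample a. Run 2 held vehicle samples 3, V1 and V2, the whole anti-CTLA-4 group, and triple combination samples b, 2 and 4. The lane of triple combination sample a was flanked by vehicle samples 2 and 4, and that of vehicle sample 3 was next to triple combination samples. The labels were kept, and results were also computed without this pair. Ly6g, the gene of the selection antigen, was read at 1.74 to 30.2 normalized counts with a median of 6.4 and was not tested, whereas the neutrophil genes S100a8 and S100a9 had medians of 5653 and 10419. In bulk samples such as these, fewer leukocytes and less RNA per leukocyte cannot be told apart.

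All 6 genes had promoter entries in the RefSeq table for build GRCm38.p6. For 5 of them the 250 bases before the most upstream listed start are shown, as a description of the sequence there. The window of Ptprc (chr1:138175306-138175555, minus strand) was searched but is not shown, since the annotated gene extends past it to position 138175756. The annotated Pik3cg gene ends at position 32208677, so the bases of its window up to there lie inside the gene. Capitals mark every match to GGAAGT, a core of ETS family sites, or to TGTGGT, a core of RUNX family sites, on the strand of the gene, and to ACTTCC or ACCACA, the same words on the other strand. No 2 matches overlap.
Vav1, chr17:57278850-57279099, plus strand: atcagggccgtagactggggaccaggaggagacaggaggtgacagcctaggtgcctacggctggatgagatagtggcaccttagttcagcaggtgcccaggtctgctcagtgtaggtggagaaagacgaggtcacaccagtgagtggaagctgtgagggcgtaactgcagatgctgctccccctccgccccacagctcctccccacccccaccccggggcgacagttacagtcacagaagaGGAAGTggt
Was, chrX:8090492-8090741, minus strand: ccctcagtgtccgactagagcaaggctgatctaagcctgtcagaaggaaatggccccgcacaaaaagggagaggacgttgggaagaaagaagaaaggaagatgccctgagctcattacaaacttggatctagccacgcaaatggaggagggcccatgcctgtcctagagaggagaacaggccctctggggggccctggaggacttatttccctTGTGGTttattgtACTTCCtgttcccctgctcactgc
Rhog, chr7:102250119-102250368, minus strand: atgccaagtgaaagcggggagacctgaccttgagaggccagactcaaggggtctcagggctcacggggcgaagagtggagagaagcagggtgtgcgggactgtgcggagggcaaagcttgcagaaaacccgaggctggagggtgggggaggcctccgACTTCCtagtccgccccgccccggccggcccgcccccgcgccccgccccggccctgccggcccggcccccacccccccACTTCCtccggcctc
Pik3cg, chr12:32208660-32208909, minus strand: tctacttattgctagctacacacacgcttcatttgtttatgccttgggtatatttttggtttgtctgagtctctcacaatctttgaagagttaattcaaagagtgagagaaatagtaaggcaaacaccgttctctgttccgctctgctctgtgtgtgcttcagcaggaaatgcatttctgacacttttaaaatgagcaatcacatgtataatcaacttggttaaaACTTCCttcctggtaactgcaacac
Jak3, chr8:71676133-71676382, plus strand: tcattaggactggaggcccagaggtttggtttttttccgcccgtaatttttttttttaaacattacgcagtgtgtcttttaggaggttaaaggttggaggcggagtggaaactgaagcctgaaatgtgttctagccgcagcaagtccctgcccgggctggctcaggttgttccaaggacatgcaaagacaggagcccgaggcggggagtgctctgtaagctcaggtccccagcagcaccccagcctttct

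A match to GGAAGT was found in 5 of the 6 windows, against 19.9% of the 27025 gene promoters of the same length, with 7 matches in all. The window of Ptprc, which lies inside the annotated gene, is 1 of these 5 and holds 2 of the 7 matches. Vav1 held it from position -9 to -4 relative to the start and Was from -24 to -19, while Ptprc and Rhog had 2 matches each. The window of Jak3 held none, which says only that these letters are not in it. TGTGGT occurred in 1 of the 6 windows, that of Was from -37 to -32, against 14.2% of promoters. Base composition differed widely, from 31.6% G and C in the window of Ptprc and 38.8% in that of Pik3cg to 72.0% at Rhog. The median over all promoters was 52.0%. Ptprc and Pik3cg each have 2 listed starts. A match is a description of letters, and no binding was measured here.

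Ptprc, the CD45 phosphatase gene, was highest after entinostat alone. Those 4 samples read 905, 1054, 1086 and 816 normalized counts in samples 1 to 4. Entinostat plus anti-PD-1 gave 809.8, 825, 796 and 958 in samples 1 to 4. Both sets lie above all 6 vehicle samples, whose lowest, median and highest values were 187, 279.6 and 739. In the triple combination the values were 446 in sample a, 643 in b, 635 in 2 and 657 in 4, inside the vehicle range. Under entinostat plus anti-CTLA-4 the level was 620.4 in sample a but 136 in sample 1, 155 in b and 224 in 3. Sample a thus stood far above the other 3, of which samples 1 and b were the lowest of the whole series. The group means were 965 ± 127 (SD, n = 4) for entinostat, 847 ± 75.1 (n = 4) with anti-PD-1, 595 ± 100.1 (n = 4) for the triple combination, 372 ± 204 (n = 6) for vehicle and 284 ± 228 (n = 4) with anti-CTLA-4.

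Jak3, the kinase gene of the common gamma chain receptors, had the smallest pooled spread within groups of the 6 genes. Entinostat samples 1 to 4 read 174, 188, 179 and 164 normalized counts. With anti-PD-1 added, samples 1 to 4 read 142, 149, 112 and 153. The entinostat samples thus lay above every other sample of the series. Vehicle ran from 70.0 through a median of 94.9 to 121, so that its highest sample overlapped the anti-PD-1 group. Triple combination values were 88.8 in sample a, 120.05 in b, 78.2 in 2 and 103 in 4. Anti-CTLA-4 with entinostat gave 97.5 in sample a, 58.0 in 1, 90.5 in b and 68.2 in 3. These last 2 groups overlapped vehicle and each other. The means were 176 ± 9.96 (SD, n = 4) for entinostat, 139 ± 18.4 (n = 4) with anti-PD-1, 97.6 ± 18.2 (n = 4) for the triple combination, 93.9 ± 17.1 (n = 6) for vehicle and 78.5 ± 18.6 (n = 4) with anti-CTLA-4. The reading of triple combination sample 2 rests on 8 barcode counts, with an exact 95% Poisson interval of 33.8 to 154 normalized counts that covers counting error only.

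Pik3cg, the gene of the PI3Kγ catalytic subunit, was read close to background. Entinostat samples 1 to 4 gave 28.4, 30.2, 35.8 and 33.7 normalized counts, and 3 of the 4 were above the limit. Entinostat plus anti-PD-1 gave 28.4, 26.3, 28.8 and 34.6 in samples 1 to 4, with 1 of 4 above the limit. None of the 6 vehicle samples reached it, at 7.80, 10.6 and 18.9 for the lowest, the median and the highest. Triple combination samples a, b, 2 and 4 read 15.9, 16.9, 19.6 and 33.1. Anti-CTLA-4 with entinostat gave 19.2 in sample a, 7.20 in 1, 2.9 in b and 7.37 in 3. Both entinostat groups on run 1 lay above all vehicle samples, while the lower readings rest on few barcode counts, down to 2 in triple combination sample 2 and 5 in entinostat plus anti-CTLA-4 sample b. For these the exact 95% Poisson intervals were 2.37 to 70.6 and 0.941 to 6.77 normalized counts. Means were 32 ± 3.36 (SD, n = 4) for entinostat, 29.5 ± 3.56 (n = 4) with anti-PD-1, 21.3 ± 7.97 (n = 4) for the triple combination, 12.7 ± 4.89 (n = 6) for vehicle and 9.17 ± 7.00 (n = 4) with anti-CTLA-4.

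Vav1, the exchange factor gene, followed Ptprc from sample to sample. It read 376, 508, 425 and 313 normalized counts in entinostat samples 1 to 4, and 301, 314, 355 and 432 in the 4 samples with anti-PD-1. Vehicle held a low of 85, a median of 129 and a high of 328, so that vehicle sample 2 exceeded the lowest sample of either group. The triple combination gave 141 in sample a and then 267, 293 and 299.7 in b, 2 and 4. Entinostat plus anti-CTLA-4 read 236 in sample a against 60.4, 59.1 and 82.9 in samples 1, b and 3. Samples 1, b and 3 were lower than every vehicle sample. The means were 405 ± 82.6 (SD, n = 4) for entinostat, 350.5 ± 59.2 (n = 4) with anti-PD-1, 250.2 ± 74.4 (n = 4) for the triple combination, 169.8 ± 96.2 (n = 6) for vehicle and 109.7 ± 85.1 (n = 4) with anti-CTLA-4.

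Rhog, the GTPase gene, stood at 563, 545, 646 and 454 normalized counts in entinostat samples 1 to 4. Adding anti-PD-1 gave 551, 488, 401 and 559. Vehicle spread from 176 through a median of 195 to 453, just under the lowest entinostat sample at 454. The triple combination read 262, 323, 264 and 345 in samples a, b, 2 and 4, all inside the vehicle range. Anti-CTLA-4 with entinostat read 338 in sample a and 117, 130.5 and 169 in samples 1, b and 3. The last 3 were below every other sample of the series. Rhog had means of 552 ± 78.5 (SD, n = 4) for entinostat, 499.6 ± 73.2 (n = 4) with anti-PD-1, 298 ± 42.1 (n = 4) for the triple combination, 257 ± 114 (n = 6) for vehicle and 189 ± 102 (n = 4) with anti-CTLA-4.

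Was, the gene of the actin regulator WASP, was read near or under the background limit in many samples. That limit pools the scaled negative controls of all samples. Entinostat samples 1 to 4 read 37.2, 60.3, 47.1 and 47.2 normalized counts, and the anti-PD-1 samples 49.4, 45.3, 32.6 and 59.1. Vehicle ran from 12.4 through a median of 21.8 to 32.9, with 1 of 6 samples above the limit. The triple combination spread widest, from 18.5 in sample a through 38.9 in b and 47.5 in 4 to 68.4 in 2, and that top value rests on 7 barcode counts (exact 95% Poisson interval 27.5 to 141 normalized counts). Entinostat plus anti-CTLA-4 gave 29.5 in sample a, 9.19 in 1, 10.4 in b and 14.1 in 3. Entinostat samples lay above all vehicle samples, and those with anti-PD-1 overlapped by 1 sample. Means were 48.0 ± 9.49 (SD, n = 4) for entinostat, 46.6 ± 11 (n = 4) with anti-PD-1, 43.3 ± 20.7 (n = 4) for the triple combination, 22.8 ± 7.04 (n = 6) for vehicle and 15.8 ± 9.38 (n = 4) with anti-CTLA-4.

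**Figure D1:**
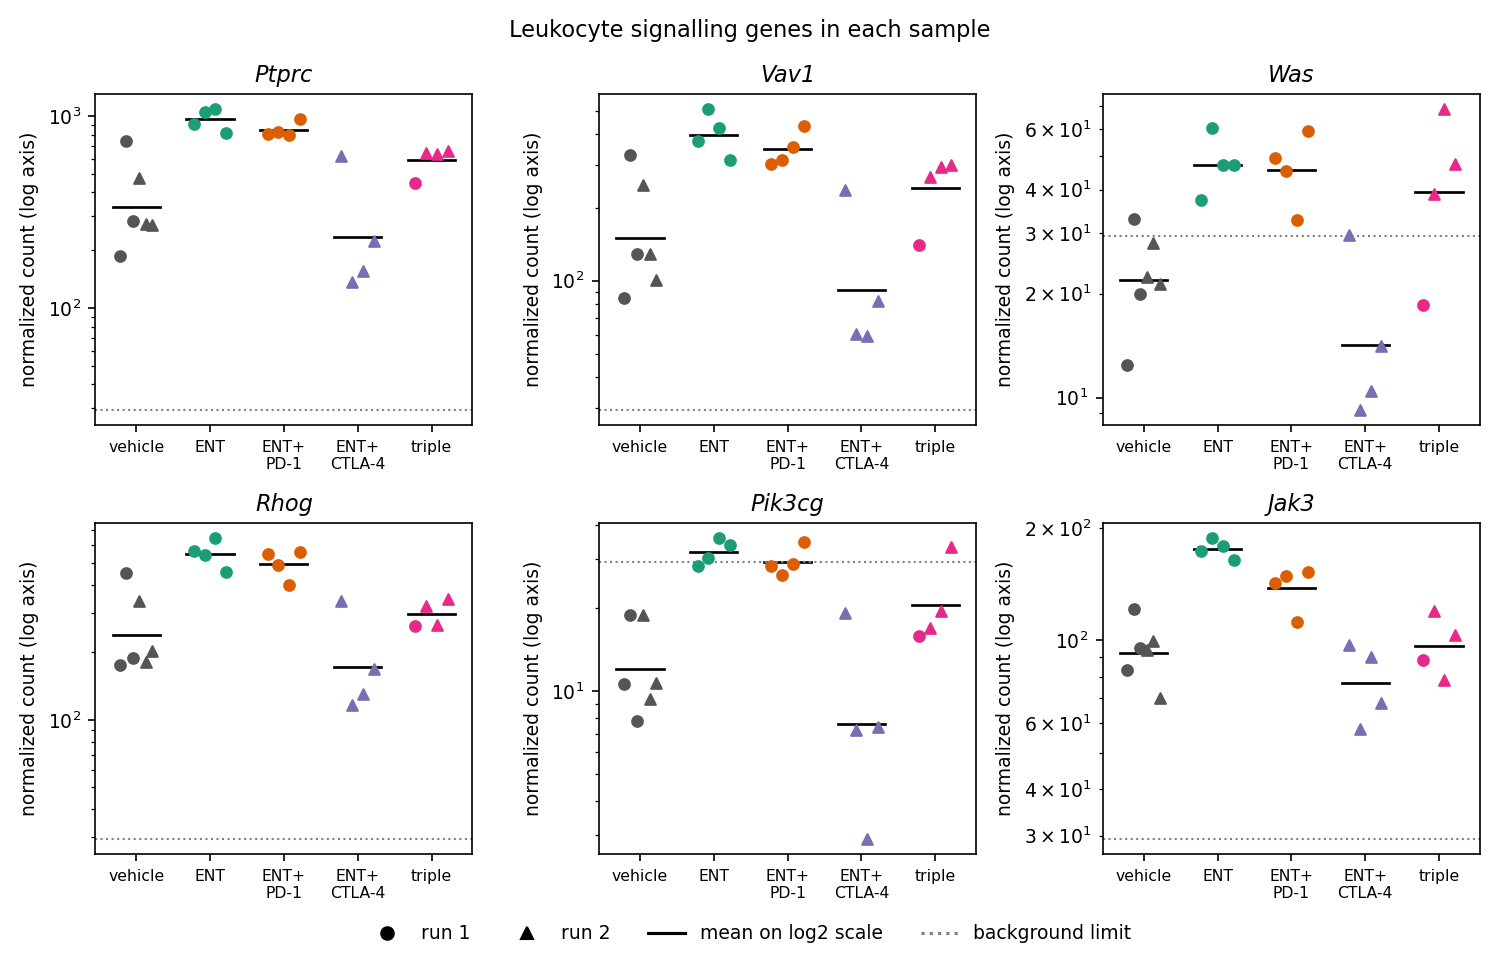
Normalized counts of the 6 genes on log axes, 1 point per sample, for vehicle (6 samples) and the 4 entinostat groups (4 samples each; ENT is entinostat, triple is both antibodies with it). Circles are run 1, triangles run 2, bars the mean on the log2 scale, and the dotted line the background limit of 29.3. In Ptprc the entinostat samples run from 816 to 1086 against 187 to 739 in vehicle, and in each gene sample a is the highest of the entinostat plus anti-CTLA-4 group.

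The order of the group means was the same in all 6 genes, with entinostat alone first, then the anti-PD-1 group, the triple combination and vehicle, and the anti-CTLA-4 group last. Not every step in that order was larger than the spread. Vehicle and entinostat plus anti-CTLA-4 overlapped in all 6 genes, as did the triple combination and vehicle. Entinostat alone and entinostat plus anti-PD-1 overlapped in 5 genes and were apart in Jak3, by 0.35 on the log2 scale against a mean group SD of 0.15. Entinostat plus anti-PD-1 lay wholly above the triple combination in Ptprc, Vav1 and Rhog. In Vav1 this was only by 301 in anti-PD-1 sample 1 against 299.7 in triple combination sample 4, on different runs. The share of all genes that lay apart in these pairs of groups was not computed, so nothing is read from these counts. Was and Pik3cg were near or under the background limit in many samples, and the scaled negative controls differed between groups too. Their mean per sample was 7.31 to 16.5 normalized counts after entinostat, 8.63 to 10.4 with anti-PD-1 and 3.30 to 28.1 in the triple combination. It was 4.66 to 7.04 in vehicle, and 1.96 to 4.30 in anti-CTLA-4 samples b, 1 and 3 against 8.31 in sample a. The part of background in the order of Was and Pik3cg was not tested.

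Entinostat alone was set against vehicle to measure the drug without either antibody. All 6 genes were higher, with a median difference of 1.26 on the log2(normalized count + 1) scale, against 0.50 over all 420 genes. Ptprc differed by 1.52 ± 0.36 (SE), Vav1 by 1.40 ± 0.39, Pik3cg by 1.34 ± 0.33, Rhog by 1.19 ± 0.28, Was by 1.08 ± 0.34 and Jak3 by 0.92 ± 0.17. In 5 of the 6 genes every entinostat sample exceeded every vehicle sample, as in 15.5% of the 420 genes (1.67% lay wholly below vehicle), and nothing is read from that count, since this contrast helped to choose the genes. Vav1 was the exception, through vehicle sample 2. Within run 1 the median was 1.28. The median of all genes itself moved with the scaling, to -0.04 when each sample was centred on its median gene and -0.13 after quantile normalization. The median of the 6 genes was 0.73 and 0.49 there, and each of the 6 kept its sign.

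Entinostat plus anti-PD-1 against vehicle gave a median of 1.12 for the 6 genes and 0.29 for all genes. The differences ran from 0.57 ± 0.17 in Jak3 to 1.33 ± 0.36 in Ptprc. Ptprc and Pik3cg did not overlap with vehicle, 2 of 6, where 8.81% of all genes did so in that direction and 0.714% in the other. Nothing is read from that count either, since shifts between groups chose the genes. Pik3cg also passed the filter through this group and entinostat alone. The triple combination against vehicle gave a median of 0.70 for the 6 genes against 0.30 for all genes. Was stood at 0.82 ± 0.34 and Ptprc at 0.81 ± 0.36, but Rhog at only 0.31 ± 0.28 and Jak3 at 0.056 ± 0.17. No member separated from vehicle there, where 1.19% of all genes lay wholly above it and 0.238% wholly below. Jak3 changed sign to -0.18 with median centring and to -0.38 with quantile normalization. Within run 2 the median of the 6 was 0.87, whereas the lone triple combination sample of run 1, sample a, gave -0.017 against the vehicle samples of that run. Without sample a and vehicle sample 3 the median was 1.00.

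Entinostat plus anti-CTLA-4 against vehicle gave lower means in all 6 genes, with a median of -0.55 against -0.13 for all genes. The range was narrow, from -0.71 ± 0.39 in Vav1 to -0.27 ± 0.17 in Jak3. None of the 6 separated from vehicle, and 0.238% of all genes did so downwards. Without sample a the median became -0.96. Within run 2, which held all 4 of these samples and 3 vehicle samples, it was -0.57.

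The effect of anti-CTLA-4 under entinostat was taken as the groups with that antibody (8 samples) minus those without it (8 samples), averaged over the presence and absence of anti-PD-1. All 6 genes were lower with the antibody, with a median of -1.21 against -0.35 for all genes. Vav1 stood at -1.32 ± 0.30, Ptprc at -1.28 ± 0.28, Pik3cg at -1.22 ± 0.26, Rhog at -1.20 ± 0.22, Was at -0.94 ± 0.26 and Jak3 at -0.85 ± 0.13. Ptprc, Vav1 and Rhog did not overlap between the sides, 3 of 6, as in 7.14% of all genes in that direction. Nothing is read from that count, since shifts between groups chose the 6 genes. Of the samples with the antibody 7 of 8 were on run 2, and all without it were on run 1. With run in the fit the median was -1.40, and the SE of Ptprc grew from 0.28 to 0.44. The antibody and the run can be told apart only through vehicle and the single triple combination sample on run 1.

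The effect of anti-PD-1 under entinostat, built in the same way, was smaller. Its median over the 6 genes was 0.58, against 0.12 for all genes. Was stood at 0.68 ± 0.26, Pik3cg at 0.60 ± 0.26, Vav1 at 0.59 ± 0.30 and Ptprc at 0.58 ± 0.28. Rhog stood at 0.32 ± 0.22, and Jak3 was at -0.013 ± 0.13. Nothing separated, in the 6 genes or in any of the 420 (0%). The comparisons with vehicle share the same 6 vehicle samples, and both antibody effects use the same 16 samples, so they are not independent of each other.

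**Figure D2:**
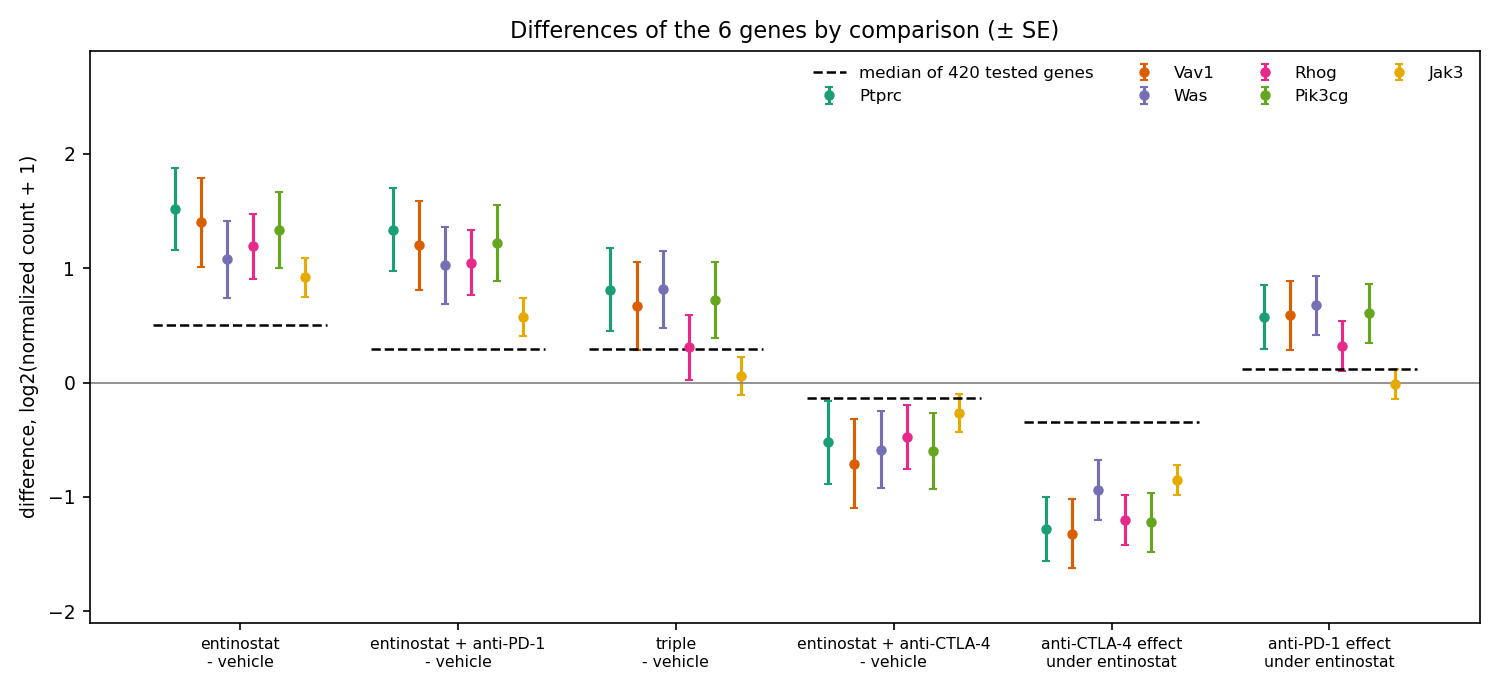
Differences of the 6 genes in log2(normalized count + 1), with bars of 1 SE from limma, for 4 comparisons with vehicle and the 2 antibody effects. Dashed lines are the median of the 420 genes. Jak3 is the smallest in size in all 6 comparisons, at 0.92 for entinostat alone and 0.056 for the triple combination.

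The 6 genes did not move in strict proportion. Set against Ptprc in the same sample, Vav1 kept nearly the same distance in every group, with mean log2 ratios between -1.34 with anti-CTLA-4 and -1.15 in vehicle and an SD of 0.17 over 22 samples. The group means of Pik3cg ran from -4.87 to -4.69, but this gene is under the background limit in most samples and its distance depends on the scale. Its difference after entinostat was 1.34 beside 1.52 for Ptprc, 0.91 beside 1.49 with a pseudocount of 10, and 0.25 beside 1.01 with quantile normalization. Jak3 did not keep its distance. Its mean log2 ratio to Ptprc was -2.44 ± 0.13 (SD, n = 4) after entinostat, -2.60 ± 0.16 (n = 4) with anti-PD-1 and -2.60 ± 0.31 (n = 4) in the triple combination. It was -1.84 ± 0.55 (n = 6) in vehicle and -1.59 ± 0.81 (n = 4) with anti-CTLA-4. Rhog lay between these patterns, at -0.81 ± 0.12 after entinostat, -0.99 ± 0.21 in the triple combination and -0.48 ± 0.22 in vehicle. These ratios are compared between groups only, since probes of different genes are not on 1 scale. Within groups the SD of the log2 values was 0.25 for Jak3, 0.45 for Rhog and 0.53 to 0.63 for the other 4, with a median of 0.43 over all genes. Any 2 of the 6 genes correlated over the 22 samples at Pearson r from 0.73 (Was and Jak3) to 0.98 (Ptprc and Vav1). After the group means were removed, r ran from 0.23 (Pik3cg and Jak3) to 0.96 (Ptprc and Vav1). These values describe 22 samples that share runs, scaling and groups.

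**Figure D3:**
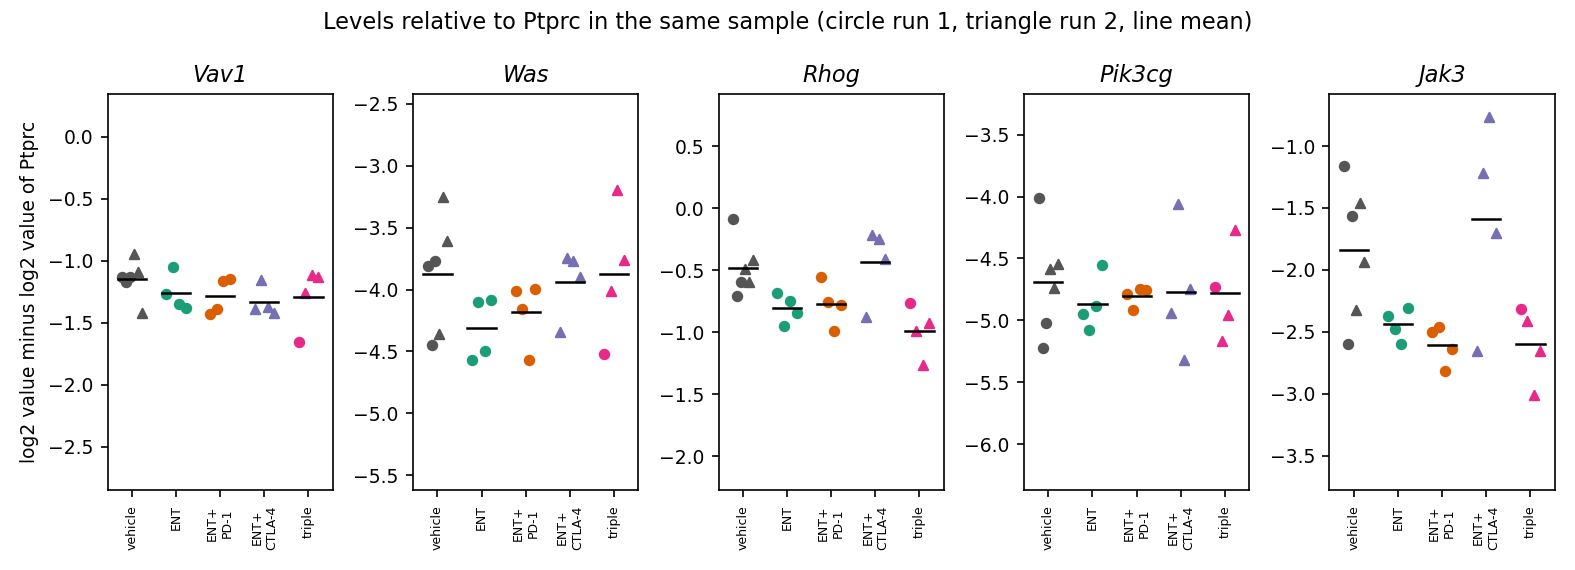
Log2 value of each gene minus that of Ptprc in the same sample, by group, with the same span on every vertical axis. Bars are group means. Vav1 stays between -1.66 and -0.95 in all samples, whereas Jak3 runs from -3.01 to -0.77 and is lowest relative to Ptprc in the entinostat, anti-PD-1 and triple combination groups.

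Single samples carried the 6 genes up or down as a block. Entinostat plus anti-CTLA-4 sample a was the highest of its group in 6 of 6 genes, and entinostat plus anti-PD-1 sample 4 likewise in 6 of 6. Vehicle sample 2 was the highest of its group in 5 of 6, and triple combination sample a the lowest of its group in 5 of 6. The mean log2 value of the 6 genes was 7.17 in vehicle sample 2 against 5.85 to 6.78 in the other vehicle samples. It was 6.91 in entinostat plus anti-CTLA-4 sample a against 5.36 to 5.78 in the other 3. In the triple combination it was 6.47 in sample a against 7.02 to 7.24.

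A leukocyte gene moved with these blocks, and an epithelial gene moved against them. Laptm5, a lysosomal membrane protein gene of leukocytes, read 949 normalized counts in vehicle sample 2 and 198 to 613 in the other vehicle samples. Cdh1, which encodes the epithelial adhesion protein E-cadherin, read 783 there and 1065 to 1253 in the others. In vehicle sample 3 Laptm5 was 613 and the mean of the 6 genes 6.78, yet Cdh1 stayed high at 1150. In entinostat plus anti-CTLA-4 sample a, Laptm5 was 733 and Cdh1 764, against 165 to 229.7 and 1211 to 1310.5 in the other 3. Triple combination sample a had Laptm5 at 371 and Cdh1 at 1162, against 557 to 701 and 841 to 1047. By group, mean Cdh1 was 804 ± 75.5 (SD, n = 4) after entinostat, 878 ± 41.1 (n = 4) with anti-PD-1, 985 ± 147 (n = 4) in the triple combination, 1077 ± 159 (n = 6) in vehicle and 1125 ± 245 (n = 4) with anti-CTLA-4, the reverse of the order of the 6 genes. Cdh1 fell by 0.41 ± 0.15 after entinostat (adjusted p = 0.0418, limma with Benjamini-Hochberg adjustment over 420 genes, lower than the vehicle mean in 4 of 4 samples).

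**Figure D4:**
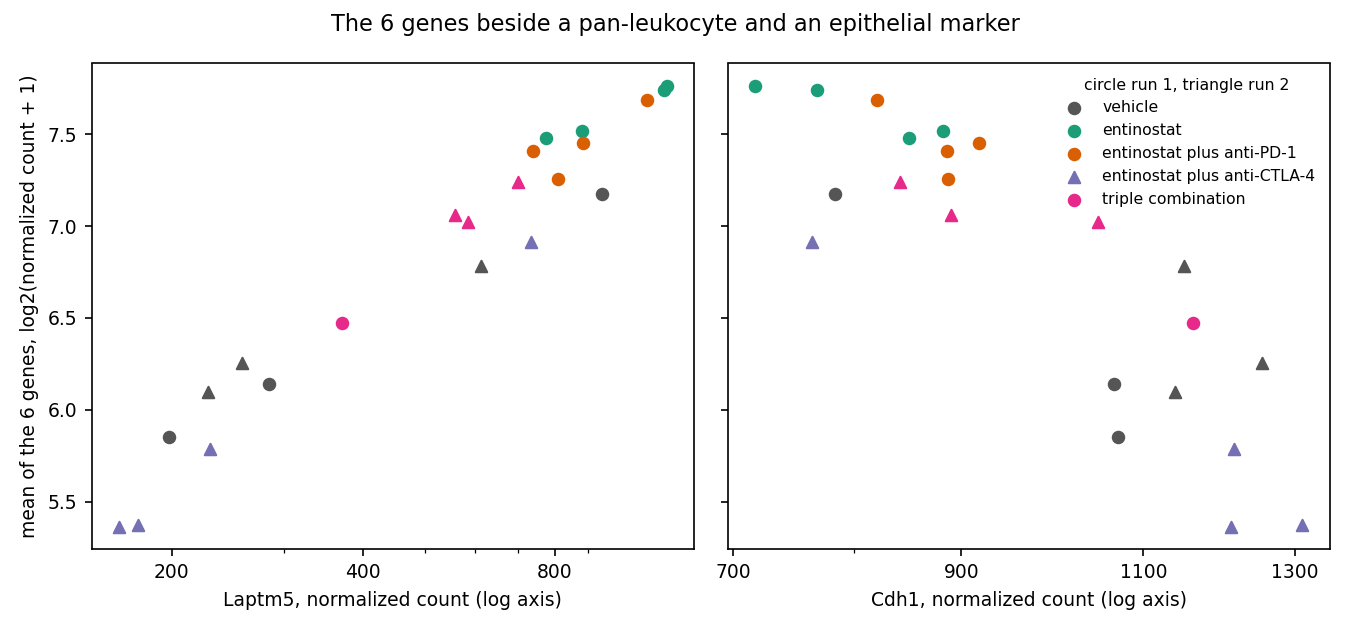
Mean log2(normalized count + 1) of the 6 genes in each of 22 samples against Laptm5, a leukocyte gene (left), and Cdh1, an epithelial gene (right), both on log axes. Colours are groups, circles run 1 and triangles run 2. Entinostat samples, with 776 to 1198 for Laptm5, lie at the top, and samples 1, b and 3 of the anti-CTLA-4 group, with 165 to 229.7, at the bottom left.

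Lists of cell type markers were read beside the 6 genes. Of 11 pan-leukocyte genes in the list 3 were on the panel (Itgb2, Laptm5 and Cytip), and all 3 rose after entinostat, as did 36.2% of all 420 genes. Their summed level had medians of 1950.5 in entinostat (1522 to 2198), 1624 with anti-PD-1 (1524 to 1986), 1190.2 in the triple combination (790.5 to 1343), 621 in vehicle (518 to 1657) and 452 with anti-CTLA-4 (342 to 1402). After entinostat Laptm5 differed from vehicle by 1.49 on the log2 scale, Itgb2 by 1.31 and Cytip by 0.99, beside 1.52 for Ptprc. Ptprc set against the mean of these 3 on the log2 scale stood at 0.91 ± 0.06 (SD, n = 4) after entinostat and 0.65 ± 0.19 (n = 6) in vehicle. For Jak3 the same distance was -1.53 ± 0.17 and -1.19 ± 0.60. The group means of the other 4 genes lay closer together, at -0.36 and -0.49 for Vav1, 0.10 and 0.17 for Rhog, -3.41 and -3.22 for Was and -3.96 and -4.03 for Pik3cg. Of 11 neutrophil genes 8 were on the panel and 6 tested, and 6 of 6 rose after entinostat. Camp, one of them, averaged 7.80 normalized counts in vehicle and passed the filter only through a group where it was high (33.4 after entinostat). Their summed level, over all 8 on the panel, ran from 19930.2 to 39239 after entinostat and from 5543 to 23756 in vehicle. Both tested epithelial genes, Cdh1 and Ptprk, fell. None of the 5 tested monocyte and macrophage genes was called, although their list summed to 767 to 2530 after entinostat and 371 to 2474 in vehicle. Lymphocyte markers were near background. The T cell genes on the panel were Cd28 and Ctla4 (2 of 10), summing to at most 38.2 normalized counts in any sample. Ms4a1 of B cells never exceeded 19.6, and Klrk1 and Gzma of NK cells together never exceeded 48.9, a value of triple combination sample 2, where 1 count is worth 9.78. None of these 5 lymphocyte genes was tested. Markers of other cell types moved with the 6 genes too. After entinostat Itgax of the dendritic list (1 of 2) was higher by 1.43 on the log2 scale and Col3a1 of the fibroblast list (1 of 3) by 1.70. Pdgfra of the fibroblast list stood at -0.64 (adjusted p = 0.020, 0.0390 and 0.0167 in this order, limma). The endothelial genes Sele and Selp (2 of 3 tested) were higher by 2.22 and 3.00. Sele and Selp lay under the background limit in vehicle by their geometric means and passed the filter through other groups, so no test is given for them. Endothelial and fibroblast genes were read throughout, with summed levels of 144 to 668 and 539.6 to 978 after entinostat, and 19.5 to 222 and 417 to 699 in vehicle. Dendritic cell genes summed to 133 to 187 after entinostat and 48.7 to 107 in vehicle. The part of these cells in the levels of the 6 genes was not tested.

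Signalling partners of the 6 genes were read from lists of 79 genes, of which 19 were on the panel and 14 were tested. After entinostat 9 of the 14 rose and none fell, where 40% of all 420 genes were called, 36.2% upwards and 3.81% downwards (152 and 16 genes, but 95 and 81 with median centring and 88 and 87 with quantile normalization). The median difference of the 14 was 0.61, against 0.50 for all genes. Among the genes of ITAM adaptors and Src and Syk family kinases, which act next to CD45 and upstream of Vav1, 3 of 4 rose. The lists were made with earlier results of these data known. Tyrobp and Syk were also the genes most like Ptprc and Vav1 (r = 0.99 and 0.98). Their tests are thus not independent of how the 6 genes were chosen. Syk, the kinase that binds phosphorylated ITAMs, was 454 ± 30.4 normalized counts (SD, n = 4) against 162 ± 103 in vehicle (n = 6), a difference of 1.68 ± 0.42 (adjusted p = 0.00911, limma, higher in 4 of 4). Tyrobp, the ITAM adaptor DAP12, differed by 1.55 ± 0.45 (adjusted p = 0.0144, limma). Btk, a kinase of B cell and myeloid receptors, differed by 1.76 ± 0.53. Both were higher in 4 of 4 samples. Btk averaged 20.1 normalized counts in vehicle, under the background limit, and entered the fit only through groups where it was high. Its difference from vehicle was in part fixed by that choice, so no test against vehicle is given for Btk, which stays in the counts of called genes. Fyn, a Src family kinase, stood at -0.24 ± 0.11 without a call (adjusted p = 0.0840, limma). These kinase and adaptor genes kept their signs under median centring and quantile normalization.

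In the JAK and STAT list 6 of 8 tested genes rose after entinostat. Stat6, the factor behind the interleukin 4 receptor, differed by 0.66 ± 0.21 (adjusted p = 0.0194, limma) and Socs3, a feedback inhibitor of STAT3 signals, by 1.27 ± 0.40 (adjusted p = 0.020, limma). Il4ra, the interleukin 4 receptor chain that pairs with the common gamma chain, differed by 0.64 ± 0.21 (adjusted p = 0.0212, limma), each of these 3 genes in 4 of 4 samples. Stat3 and Stat5b were also called, at 0.33 and 0.50, but turned to -0.21 and -0.04 with median centring. Stat6 and Il4ra kept their sign but shrank to 0.12 and 0.10 with median centring and to 0.11 and 0.05 with quantile normalization. The partner calls, 9 higher and 0 lower, split into 4 higher and 3 lower both with median centring and with quantile normalization, and 4 of the 9 were among them. The lists with 1 tested gene each gave no call. Hras of the PI3-kinase list stood at -0.08 ± 0.12 (adjusted p = 0.562, limma) and Vav2 of the list of GTPases, exchange factors and actin genes at -0.08 ± 0.15 (adjusted p = 0.646, limma). Both stood at -0.62 with median centring, and at -0.65 and -0.67 with quantile normalization. Leaving out V1 and V2 from vehicle reduced the 9 calls to 2, and leaving out entinostat sample 2 or 3 reduced them to 4.

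With anti-PD-1 added to entinostat, 4 of the 14 partners rose and 1 fell against vehicle, where 21.9% of all genes were called, 20.5% upwards and 1.43% downwards (86 and 6 genes, but 69 and 32 with quantile normalization). Tyrobp stood at 1.46 ± 0.45 (adjusted p = 0.0293, limma), Syk at 1.36 ± 0.42 (adjusted p = 0.0316, limma) and Socs3 at 1.24 ± 0.40 (adjusted p = 0.0352, limma). Btk, counted among the 4, stood at 1.6 ± 0.53, a difference in part fixed by the background filter. Each of these genes was higher in 4 of 4 samples. Fyn fell by 0.32 ± 0.11 (adjusted p = 0.0490, limma, lower in 4 of 4). Hras stood at -0.11 ± 0.12 (adjusted p = 0.533, limma) and Vav2 at -0.14 ± 0.15 (adjusted p = 0.503, limma). With median centring Hras and Vav2 stood at -0.41 and -0.45. All 5 calls were lost with run in the fit, and the count was 0 without any 1 of vehicle samples 1, 4, V1 or V2 or anti-PD-1 samples 1, 2 or 4, and 1 without anti-PD-1 sample 3.

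None of the 14 partners was called in entinostat plus anti-CTLA-4 or in the triple combination against vehicle, nor was any of the 420 genes (0%). At an unadjusted p under 0.05 limma had 6 and 59 of the 420. In the triple combination Btk, with the smallest p of the kinase and adaptor list, stood at 1.19 ± 0.53 without a call. There Vav2 stood at 0.15 ± 0.15 and Hras at 0.09 ± 0.12 (adjusted p = 0.505 and 0.623, limma). With anti-CTLA-4 the smallest p in the lists were those of Syk at -0.51 ± 0.42 and Stat5a at -0.27 ± 0.22 (adjusted p = 0.960 for both, limma), with Vav2 at -0.02 ± 0.15 and Hras at -0.01 ± 0.12 (adjusted p = 0.978 for both, limma).

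Across the anti-CTLA-4 effect 5 partners fell and 1 rose, where 32.1% of all genes were called, 30% downwards and 2.14% upwards (126 and 9 genes, but 102 and 77 with median centring and 90 and 84 with quantile normalization). Syk fell by 1.36 ± 0.33 (adjusted p = 0.00497, limma), Tyrobp fell by 1.40 ± 0.35 (adjusted p = 0.00595, limma), Stat6 fell by 0.64 ± 0.16 (adjusted p = 0.00625, limma), Stat3 fell by 0.24 ± 0.08 (adjusted p = 0.0289, limma) and Socs3 fell by 0.91 ± 0.31 (adjusted p = 0.0301, limma). Of 8 samples with the antibody, 8 were below the mean of those without it in each of these genes but Socs3, where 7 were. Fyn rose by 0.24 ± 0.09 (adjusted p = 0.0370, limma) in 7 of 8. Stat3 turned to 0.15 with median centring and 0.24 with quantile normalization, and the partner calls split into 4 higher and 3 lower with median centring and 3 and 2 with quantile normalization. Hras stood at 0.13 ± 0.09 (adjusted p = 0.264, limma) and Vav2 at 0.18 ± 0.11 (adjusted p = 0.224, limma). With median centring Hras and Vav2 stood at 0.53 and 0.58. With run in the fit no partner and no gene was called. The count of 6 was 10 without anti-CTLA-4 sample a, and 3 without anti-CTLA-4 sample b, anti-CTLA-4 sample 3 or anti-PD-1 sample 4. The anti-PD-1 effect called no partner and no gene (0%, and 12 of 420 at an unadjusted p under 0.05), with Fyn at -0.14 ± 0.09 and Socs3 at 0.48 ± 0.31 (adjusted p = 0.692 for both, limma). Vav2 stood at 0.06 ± 0.11 and Hras at 0.04 ± 0.09 (adjusted p = 0.896 and 0.906, limma).

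**Figure D5:**
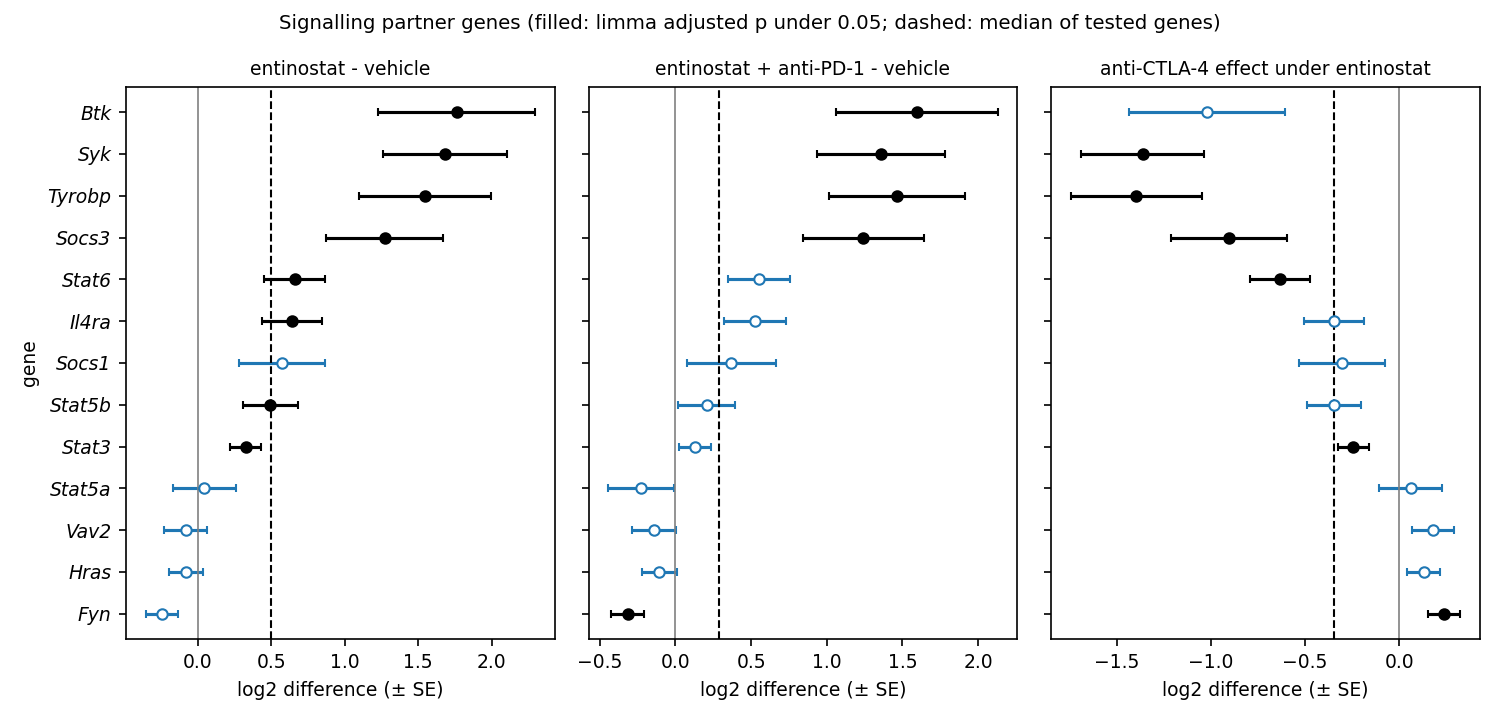
Differences of 13 tested signalling partners in log2(normalized count + 1), with bars of 1 SE, after entinostat (left), after entinostat plus anti-PD-1 (middle) and for the anti-CTLA-4 effect (right). Filled points passed an adjusted p of 0.05 in limma, and dashed lines are the median of 420 genes. Btk, Syk, Tyrobp and Socs3 lead the first 2 panels at 1.24 to 1.76, and Fyn lies below 0 in both. Btk was under the background limit in vehicle and passed the filter only through groups where it was high.

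The panel also held relatives of 3 of the 6 genes, picked by name after the panel had been read. Vav2, a relative of Vav1 made in many tissues, had group means on the deposited scale from 84.1 ± 12.0 normalized counts (SD, n = 4) with anti-PD-1 to 103 ± 11 (n = 4) in the triple combination. Its difference after entinostat was -0.08 ± 0.15, beside 1.40 ± 0.39 for Vav1. Among small GTPase relatives of Rhog, Rhoc stood at -0.27 ± 0.14 (adjusted p = 0.130, limma) and Rnd3 at -0.15 ± 0.19 (adjusted p = 0.519, limma), and Rhoj at 0.35 ± 0.26 (adjusted p = 0.269, limma), beside 1.19 for Rhog. With median centring these values were -0.81 for Rhoc, -0.69 for Rnd3, -0.19 for Rhoj and -0.62 for Vav2. Ptprc had a pair of receptor phosphatase relatives. Ptprk, found in epithelium, fell by 0.44 ± 0.16 (adjusted p = 0.0363, limma), and Ptprb, found in vessel endothelium, read 58.5 ± 29.5 normalized counts (SD, n = 4) after entinostat. In vehicle it read 15.5 ± 14.8 (n = 6), under the background limit, so it passed the filter only through groups where it was high and no test is given for it. The difference between each relative and its member was not tested.

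The tested genes whose log2 values were most like each member over the 22 samples were named by Pearson r, as a description. Ptprc was nearest to Tyrobp and Clec5a (r = 0.99 for both), which encode an ITAM adaptor and a myeloid lectin receptor. Vav1 was nearest to Syk, Laptm5 and Tyrobp (each 0.98). Rhog was nearest to Fpr2, a formyl peptide receptor, Tlr13, a receptor for bacterial RNA, and Vasp, an actin regulator (each 0.98). Pik3cg was nearest to Icosl, Clec7a and Cd80 (each 0.94), and Was to Slc16a6, Nfatc1 and Olr1 (0.96, 0.93 and 0.93). Jak3 stood apart with lower values, for Ell2, Furin and Gadd45b (0.89, 0.87 and 0.86). Of the other tested genes outside the 6, 22% had r over 0.9 with Ptprc, 22.2% with Vav1, 19.8% with Rhog, 12.1% with Pik3cg, 4.83% with Was and 0% with Jak3. The samples share scaling, groups and runs, and they are not independent points for these values.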

How the data were processed

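Total RNA of Ly6G-selected cells was measured with the NanoString mouse myeloid panel. Per the labels, groups are the sample titles. The authors deposited a signal, namely normalized counts on a linear scale, for 655 endogenous and 20 housekeeping genes, 8 negative and 6 positive controls. How it was normalized is not given in the sources used here. Limma appears in the submitters' processing notes, with no version. In the deposited signal the geometric mean of the housekeeping genes ran from 172 to 194. Gene values above 1, apart from high values that were not checked, were whole multiples of a step fitted to them in each sample (100% within 0.02 normalized counts of a multiple). Division by the step gave barcode counts. Controls were left as whole counts. In 8 samples some values stand at a floor of 1, so no count test was run. Column headers gave the run. There were 4 columns sharing names in pairs, called samples a and b.

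Values were transformed as log2(normalized count + 1) and fitted in limma 3.58.1 (R 4.3.3), with 5 group means over 22 samples and 17 residual degrees of freedom. The limit of 29.3 is the mean plus 2 SD of the scaled negative controls on the log2 scale, and 235 genes below it were left out. Calls are two-sided with Benjamini-Hochberg adjusted p under 0.05 over 420 genes. Tables and figures were made in Python 3.11.15. The members and lists were chosen with earlier results of these data known. Named genes were the 6 members, up to 4 called partners with the smallest p in each list (or the gene with the smallest p), panel relatives and the 3 most alike genes. The fit was tested on data simulated for entinostat against vehicle with 420 genes. It found 73% of the genes shifted by a log2 of 1 and 96% of those shifted by 2, with 10 false calls of 179. Whether these rates hold for the real samples, in which many genes moved together, was not tested. Samples of a group differed beyond counting noise in each of 39 pairs, with a chi-square of at least 2.68 times its degrees of freedom. Alternatives were another pseudocount, no filter, other scalings, left-out samples, run and replicate blocks. Some items that the rule for named genes or the lists would bring in are not reported here by name, but they stay in the counts.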

Additional observations from a re-analysis of the deposited data

Results flagged for a closer look

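In 30 sets of a gene and a group, 2 held a sample whose gap to its nearest neighbour took an unusually large part of the group's range, where chance marks about 1 in 20. Ptprc in triple combination sample a stood at 446 normalized counts, below the other 3 at 635 to 657, a gap of 0.897 of the range. Sample a was the only triple combination sample on run 1. Vav1 in entinostat plus anti-CTLA-4 sample a stood at 236, above the other 3 at 59.1 to 82.9, a gap of 0.866 of the range, on the same run as the other 3. Laptm5 was lowest of its group in the first sample and highest in the second, and Cdh1 the reverse.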

How the results depend on the processing

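Values below are median log2 differences of the 6 genes or counts of called genes (partners of 14, all genes of 420). Leaving out 1 sample gave, for entinostat against vehicle, 4 to 10 partners, 80 to 207 genes and medians of 1.17 to 1.42. For entinostat plus anti-PD-1 it gave 0 to 7 partners, 1 to 140 genes and 1.00 to 1.29. For entinostat plus anti-CTLA-4 the medians ran from -0.96 to -0.34 and for the triple combination from 0.53 to 0.88, with 0 calls in both. The anti-CTLA-4 effect gave 3 to 10 partners, 101 to 219 genes and -1.40 to -1.08, and the anti-PD-1 effect 0 calls and 0.45 to 0.81. The single samples that moved a count of all genes by over 1.5 times were entinostat 2 (98) and 3 (80) in the first comparison, vehicle 2 (140), vehicle 1 and 4 and anti-PD-1 1, 2 and 4 (1 each), V1 (13) and V2 (7) in the second, and anti-CTLA-4 a (219) in the antibody effect. Without the background filter, and so with more genes in the fit, entinostat plus anti-PD-1 called 0 partners and 43 genes. Median centring gave 0.73 for entinostat. Quantile normalization gave 0.49 for entinostat, 0.58 with anti-PD-1, 0.18 for the triple combination, -0.36 for entinostat plus anti-CTLA-4, -0.65 for the anti-CTLA-4 effect and 0.35 for the anti-PD-1 effect. Without vehicle samples V1 and V2, entinostat called 2 partners and 54 genes, and entinostat plus anti-PD-1 0 and 0. With run as a block, entinostat plus anti-PD-1 called 0 partners and 3 genes, and the anti-CTLA-4 effect 0 and 0. In run 1 alone entinostat plus anti-PD-1 called 0 partners and 0 genes, and the triple combination, by 1 sample, turned to -0.017 (Vav1 -0.12, Was -0.12). The cause of these changes was not tested. Pseudocount 10 and leaving out triple combination sample a with vehicle sample 3 kept every direction of the median and every count within 1.5 times.

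Same-numbered samples did not deviate together (median r -0.07 over 24 pairs, against -0.05 over 76 others), so the numbers were not taken to pair samples. With the replicate number as a block over the numbered samples, entinostat called 6 partners and 137 genes, entinostat plus anti-PD-1 1 and 66, the triple combination 0 and 6, the anti-CTLA-4 effect 4 and 117 and the anti-PD-1 effect 0 and 1. The same samples without the block, a fit chosen after seeing the data, gave entinostat plus anti-PD-1 3 partners, the triple combination 2 partners and 36 genes, and the anti-PD-1 effect 6 genes. The planned edgeR alternatives were not run, because values at a floor of 1 could not be turned into counts. Precision is limited by few barcode counts for Pik3cg and Was, and by triple combination sample 2 with 23296 counts.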
